A study of Mus musculus with 23 samples.

Results

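The Peg13-Trappc9-Kcnk9 domain of mouse chromosome 15 was followed in whole embryos that had the zinc finger protein ZFP57 from both the oocyte and the embryo, from the embryo alone or from neither. Its members were the rows of the symbols Peg13, Trappc9, Kcnk9 and Chrac1 in the gene count tables and in the allelic count tables, and they made up 4 of the 26183 genes listed. RNA-seq had been carried out on 23 E13.5 embryos, 1 library per embryo, and each library gave the reads per gene and the reads per gene and parental allele. Of the 13 females, 6 were M+Z+, 3 were M-Z+ and 4 were M-Z-, and of the 10 males, 4 were M+Z+, 3 were M-Z+ and 3 were M-Z-. M+Z+ embryos had ZFP57 from the oocyte and from their own genome, M-Z+ embryos (Zfp57-/+) had a null mother and a functional paternal copy, and M-Z- embryos (Zfp57-/-) had a null mother and no functional copy. Since the titles of M+Z+ samples carry Zfp57-/+ as well, these embryos may have been heterozygous. For these embryos the study's methods name mothers of the 129 strain that were Zfp57-/- and Zfp57 heterozygous fathers backcrossed to DBA/2J. Null mothers cannot give M+Z+ embryos, and for an earlier set of embryos the study names heterozygous 129 mothers as well. Reads over strain variants were split into maternal reads (129 variant) and paternal reads (DBA variant). Since 129 was always the maternal strain, an effect of the parent and an effect of the strain cannot be told apart in these data.

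Total counts were 15.2 to 24.1 M per embryo (M, 1000000 reads), and the reads assigned to an allele were 2.46 to 3.95 M. A count of 0 was taken to allow up to 3 counts, or 0.125 to 0.198 CPM (counts per M reads, a gene's reads divided by the library total in M). Zfp57 itself averaged 66.9 ± 17.0 CPM (SD, n = 6) in female and 76.5 ± 9.90 CPM (n = 4) in male M+Z+ embryos, and it was 31.9 to 34.0 CPM in female and 25.5 to 35.3 CPM in male M-Z- embryos. Its log2 fold change from M+Z+ to M-Z- was -1.02 in females (adjusted p = 0.000399, edgeR's quasi-likelihood test) and -1.33 in males (adjusted p = 4.69e-05). Reads over the gene were thus fewer but not absent in M-Z- embryos, and which exons the deleted allele lacks was not given in the sources used here. Nothing in the sources says whether embryos of a group came from the same litter, so the p-values below measure the spread between these embryos.

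Imprinted genes are expressed mainly from the allele of one parent, and the choice is set by an imprinting control region that carries DNA methylation on the allele of 1 parent only. ZFP57 binds a methylated hexamer in such regions and helps to keep their methylation after fertilization. In the domain on chromosome 15 the control region lies at the start of Peg13, a noncoding RNA made from the paternal allele inside an intron of Trappc9. Kcnk9, which encodes a potassium channel of the two-pore domain class (TASK family), is expressed from the maternal allele and is best known from neurons. Trappc9 encodes a subunit of the TRAPP vesicle tethering complex, and Chrac1 encodes a histone fold subunit of a chromatin remodelling complex. The comparison of the 3 genotypes asks whether the alleles and the levels of these genes depend on ZFP57 of the oocyte and of the embryo.

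In the mm9 annotation of the count tables, Peg13 has 1 exon of 4723 bases at chr15:72636032-72640754 on the minus strand. It lies within intron 19 of Trappc9, an intron of 102 kb (chr15:72631833-72733986), and shares 0 bases with the exons of Trappc9. Trappc9 has 26 exons spread over 471.6 kb (chr15:72420050-72891634, minus strand). Kcnk9 has 2 exons (chr15:72337416-72378129, minus strand), and its start site lies 263 kb from that of Peg13. Chrac1 has 3 exons (chr15:72920842-72924505, plus strand) with a start site 280 kb from that of Peg13. The 4 members span 587 kb, no other annotated gene lies between Kcnk9 and Chrac1, and the next gene beyond Chrac1 is Ago2 (chr15:72932055-73015377, minus strand). Peg13 and Trappc9 lie on the same strand, so reads from unspliced RNA of Trappc9 cannot be told apart from those of Peg13.

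**Figure D1:**
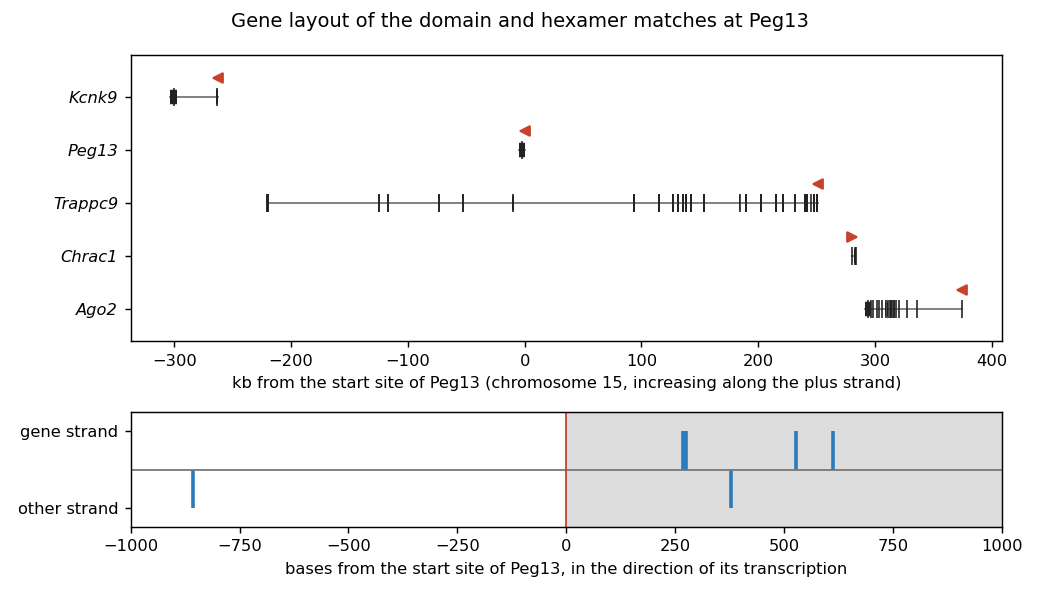
Layout of the domain in kb from the Peg13 start site (upper panel, boxes are exons and arrowheads mark the start sites) and positions of the ZFP57 hexamer within 1000 bases of that start site (lower panel, upward marks on the gene strand, grey bar for the Peg13 exon). Peg13 lies inside Trappc9, and 5 of its 6 hexamer matches fall after the start site.

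The hexamer known for ZFP57 was searched as TGCCGC and, on the other strand, GCGGCA. Within 1000 bases on either side of the start site, Peg13 held 6 matches, at -858, 268, 276, 378, 527 and 613 bases from the start. At least 6 matches occurred in the same window of 119 of 25895 genes (0.46%). Trappc9 held 1 match and Chrac1 held 0, while 42.4% of all genes held at least 1. The 300 bases from 250 before to 50 after the start site held no match in Peg13, and 3505 of 25891 such windows held at least 1. A match is a run of letters and not a site shown to be bound. The following stretches of the mm9 genome, read on the strand of the gene, show the densest matches at Peg13 (exon, bases 250 to 549 after the start, chr15:72640206-72640505, a window placed after the matches were seen) and the Peg13 start (chr15:72640705-72641004), with the hexamer of either strand in capitals:
Peg13 exon: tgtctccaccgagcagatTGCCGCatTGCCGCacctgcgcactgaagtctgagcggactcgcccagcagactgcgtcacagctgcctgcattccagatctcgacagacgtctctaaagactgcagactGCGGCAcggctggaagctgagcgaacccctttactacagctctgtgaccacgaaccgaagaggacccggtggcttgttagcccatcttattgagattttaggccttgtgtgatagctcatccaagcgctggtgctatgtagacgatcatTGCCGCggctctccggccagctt
Peg13 start: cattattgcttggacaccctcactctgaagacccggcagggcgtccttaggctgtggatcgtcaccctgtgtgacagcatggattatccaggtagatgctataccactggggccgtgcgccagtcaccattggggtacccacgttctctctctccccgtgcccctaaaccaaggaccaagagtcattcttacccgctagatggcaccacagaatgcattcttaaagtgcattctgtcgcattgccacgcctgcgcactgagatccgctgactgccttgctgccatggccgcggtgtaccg
The stretch of the Peg13 exon held 4 hexamers and 20 CpG dinucleotides in 300 bases. The stretch around the Peg13 start held 15 CpG dinucleotides, against a median of 11 over all such windows.

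Peg13 was paternal in M+Z+ and M-Z+ embryos and had many maternal reads in M-Z- embryos of both sexes. In female M+Z+ embryos the paternal reads were 341 to 404, and the maternal reads were 0 in 5 embryos and 1 in the other. In male M+Z+ embryos the paternal reads were 507, 313, 377 and 368, against 0, 1, 1 and 0 maternal reads. A count of 0, found in 7 of the 10 M+Z+ embryos, allows a maternal share of up to 0.592 to 0.836% by counting error alone. That bound takes each read as a separate molecule. The sources used here name no molecular identifiers, so the bound may be too low. Unspliced Trappc9 RNA could give reads in this exon too, and its part in the Peg13 reads was not tested. Trappc9 itself had reads of both alleles in M+Z+ embryos, 152 paternal and 151 maternal in females and 100 and 110 in males. In the 3 female M-Z+ embryos the paternal and maternal reads were 366 and 0, 361 and 0, and 409 and 3. In the 3 male M-Z+ embryos they were 371 and 15, 374 and 0, and 377 and 0, so that the maternal share of male M-Z+ replicate 1 was 3.89% (95% Wilson interval 2.37 to 6.31%).

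The maternal share of Peg13 reads differed widely among the 7 M-Z- embryos. In females it was 5.47% in replicate 1 (21 of 384 reads), 39.3% in replicate 2 (219 of 557), 37.2% in replicate 3 (208 of 559) and 31.8% in replicate 4 (153 of 481). In males it was 28.2% in replicate 1 (118 of 419 reads), 46.7% in replicate 2 (199 of 426) and 16.5% in replicate 3 (68 of 412). The 95% Wilson interval was 3.60 to 8.22% for female replicate 1, 13.2 to 20.4% for male replicate 3 and 42.0 to 51.5% for male replicate 2, so the differences between these 3 embryos exceeded their counting error. Male replicate 2 was the only M-Z- embryo whose interval included equal shares of the alleles. Female replicate 1 had a share close to that of male M-Z+ replicate 1, and every M-Z- embryo was above every M+Z+ and M-Z+ embryo of its sex.

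The P-score is the paternal share of the allele-assigned reads minus 0.5, so that it is 0.5 with paternal reads alone, 0 with equal alleles and -0.5 with maternal reads alone. The mean P-score of Peg13 in females was 0.4995 ± 0.00119 (SD, n = 6) in M+Z+, 0.498 ± 0.00420 (n = 3) in M-Z+ and 0.215 ± 0.156 (n = 4) in M-Z- embryos. The male means were 0.499 ± 0.00170 (n = 4), 0.487 ± 0.0224 (n = 3) and 0.195 ± 0.152 (n = 3) in the same order. Peg13 thus kept a mean paternal excess in M-Z- embryos, 0.207 ± 0.142 over all 7, with a range from 0.0329 to 0.445. The M-Z- embryos lay 0.284 below the M+Z+ embryos in females (exact two-sided permutation p = 0.00476) and 0.303 below in males (exact p = 0.0286), each the smallest p that these group sizes allow. Over both sexes, with labels permuted within each sex, the mean difference was -0.294 (exact p = 0.000136, the smallest possible). These were among 87 exact tests made on genes of this stretch of chromosome 15, and the Benjamini-Hochberg value over the 87 was 0.0118 for both sexes, 0.130 for females and 0.414 for males.

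Allele counts were also tested across all genes that averaged 10 or more allele-assigned reads (edgeR, embryo effects), and a call needed an adjusted p below 0.05 together with a change of the P-score by 0.1 or more. Peg13 was called between M-Z- and M+Z+ embryos in both sexes (adjusted p = 1.25e-05 in females and 4.79e-07 in males). It was the only member called, 1 of 4 in each sex, against 0.372% of 7254 genes called in females and 2.49% of 7221 genes in males. Against M-Z+ embryos Peg13 was also the only member called, with an adjusted p of 0.000917 in females (0.221% of genes called) and 1.64e-05 in males (2.13% of genes called). The exact permutation p against M-Z+ embryos was 0.0571 in females, 0.1 in males, the smallest for 3 against 3 embryos, and 0.00286 over both sexes (0.124 after adjustment over the 87 tests). Between M-Z+ and M+Z+ embryos no member was called by edgeR in either sex, where the share of genes called was 0.165% in females and 0.194% in males. The P-score of Peg13 differed there by -0.00194 in females (exact p = 0.333) and -0.0115 in males (exact p = 0.429).

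**Figure D2:**
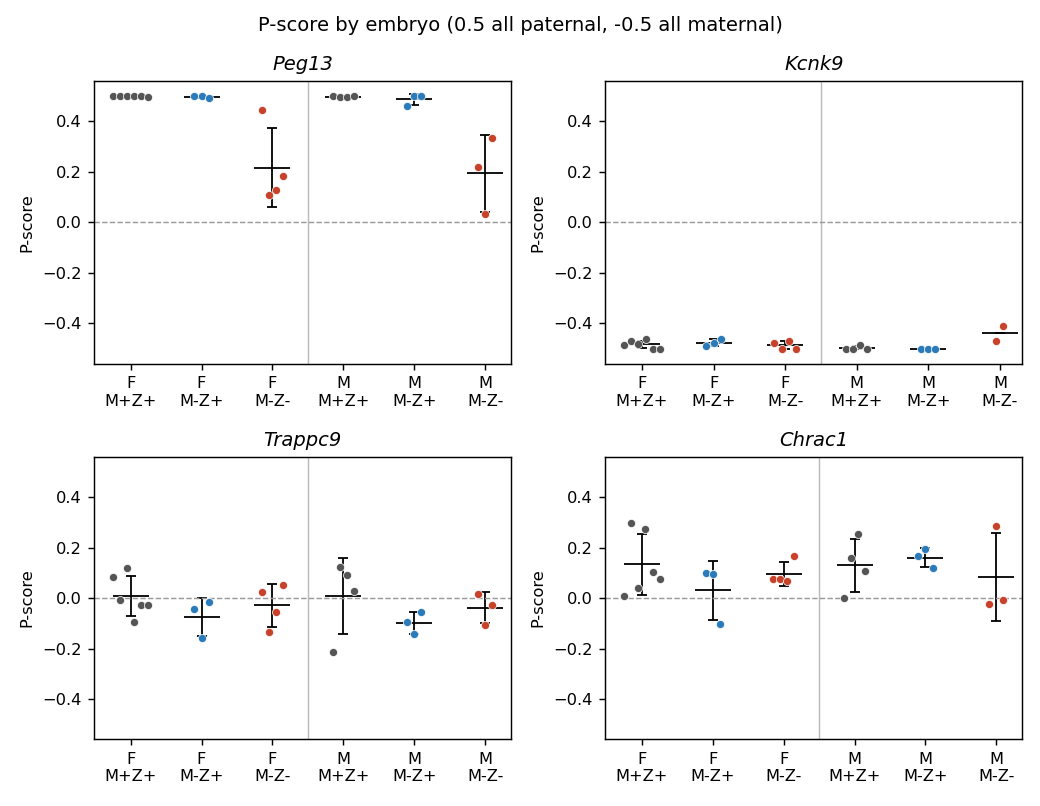
P-score (paternal share minus 0.5, no unit) of the 4 members in each embryo by sex (F, M) and genotype, with dots for embryos and black marks for the mean and SD. Peg13 falls from about 0.5 to between 0.0329 and 0.445 in M-Z- embryos, Kcnk9 lies between -0.5 and -0.409 in all groups, with the highest value in a male M-Z- embryo, Trappc9 lies around 0 and Chrac1 mostly above 0.

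The difference lay in the maternal reads. In reads per M allele-assigned reads, maternal Peg13 was 0 to 0.369 in M+Z+ embryos, and they were 6.51, 75.6, 80.7 and 49.4 in the female and 48.0, 80.4 and 26.3 in the male M-Z- embryos. No fold is given, since the M+Z+ embryos held 0 or 1 maternal reads. No test of the maternal Peg13 reads alone is given, since only the M-Z- embryos brought their mean over the minimum for such a test. Paternal Peg13 in reads per M allele-assigned reads was 113, 117, 136 and 106 in female and 122, 91.7 and 133 in male M-Z- embryos. They were 118 to 138 in female and 116 to 133 in male M+Z+ embryos, so that 3 of the 4 female and 1 of the 3 male M-Z- embryos were below that range. Their log2 fold change (edgeR on the reads of 1 allele) was -0.14 ± 0.08 (SE) in females (adjusted p = 0.522, 0.0863% of 6951 genes called) and -0.13 ± 0.12 in males (adjusted p = 0.706, 2.58% of 6903 genes called).

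**Figure D3:**
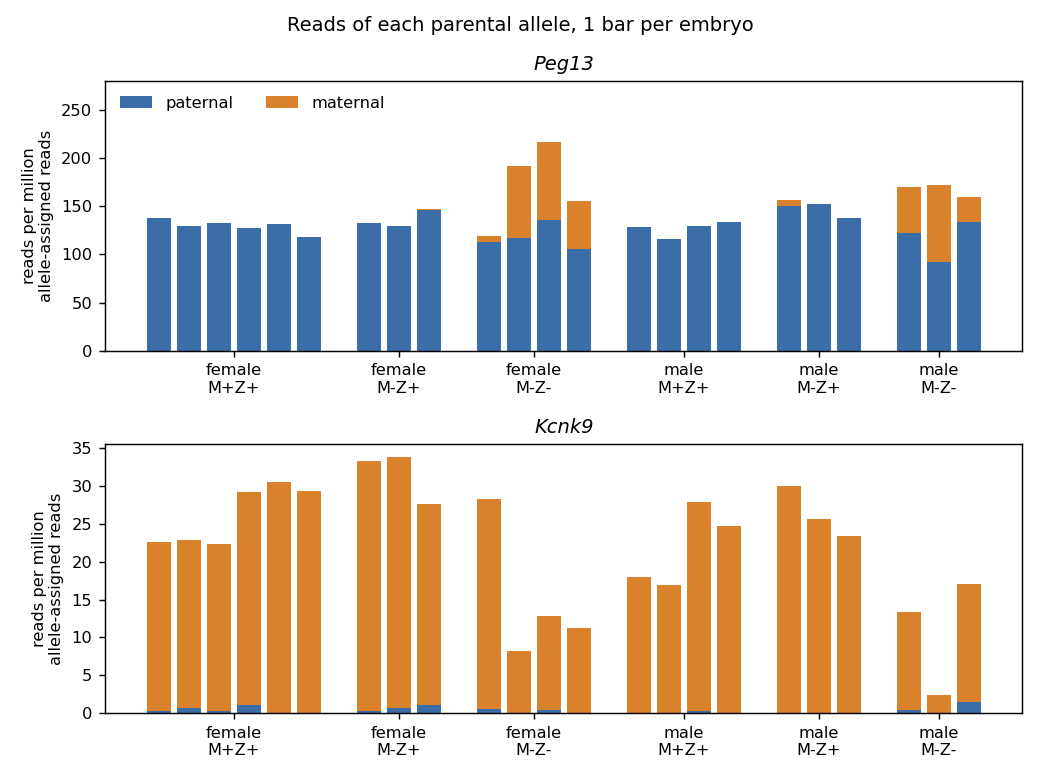
Paternal and maternal reads of Peg13 and Kcnk9 in each embryo, as stacked bars in reads per M allele-assigned reads. Maternal Peg13 reads appear in the M-Z- embryos, at up to 80.7 reads per M allele-assigned reads, while Kcnk9 is nearly all maternal in every group and has maternal reads below the M+Z+ range of the sex in 6 of the 7 M-Z- embryos.

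The sexes did not differ detectably in this shift. The P-score change of Peg13 from M+Z+ to M-Z- was 0.0191 further down in males than in females, which gave an exact p of 0.91 when the sex labels were permuted within each genotype (7350 regroupings). The SD among the M-Z- embryos, 0.156 in females and 0.152 in males, was many times that difference.

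The level of Peg13, in CPM of the total counts, was somewhat higher in M-Z- embryos. In females it was 94.8 to 105 (median 99.8) in the 6 M+Z+ embryos, 100.5, 94.9 and 108 in M-Z+ embryos and 97.4, 147, 151 and 112 in M-Z- embryos. Male embryos had 105, 105, 101 and 102 in M+Z+, 108, 97.5 and 105 in M-Z+ and 127, 126 and 112 in M-Z- embryos. Thus 6 of the 7 M-Z- embryos were above all M+Z+ embryos of their sex, and the exception was female replicate 1, the embryo with the fewest maternal reads. The log2 fold change from M+Z+ to M-Z- by edgeR was 0.35 ± 0.09 in females, with an adjusted p of 0.0748, and 0.28 ± 0.07 in males, with an adjusted p of 0.117. DESeq2 gave adjusted p-values of 0.0159 and 0.0393, and a fit of both sexes gave 0.32 ± 0.06 (adjusted p = 0.00244), all below the log2 size of 0.5 that a call needed. Against M-Z+ embryos it was 0.34 in females and 0.30 in males (adjusted p = 0.326 and 0.362), and between M-Z+ and M+Z+ embryos it was 0.01 and -0.02 (adjusted p = 0.986 and 0.975). In the fit of both sexes it was 0.32 ± 0.07 against M-Z+ embryos (adjusted p = 0.0214), also below the log2 size of 0.5.

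A gene of the domain was called for its level where the adjusted p was below 0.05 and the log2 fold change was 0.5 or more in either direction. From M+Z+ to M-Z-, edgeR called 0 of the 4 members in females, where 0.563% of 16871 genes were called, and 0 of 4 in males, where 0.39% of 16664 genes were called. At an unadjusted p below 0.05 there were 3 members in females and 2 in males, where 15.5% and 17% of all genes tested by edgeR had such a p (11.7% and 12.4% by DESeq2). DESeq2 called 1 member (Kcnk9) in females, where it called 0.875% of genes, and 0 in males, where it called 1.12%. From M-Z+ to M-Z- edgeR again called 0 members in females (0.196% of genes called) and in males (0.15%), with 2 members at an unadjusted p below 0.05 in each sex (8.64% and 9.5% of all genes). DESeq2 called Kcnk9 in females (0.315% of genes called) and no member in males (0.311%). From M+Z+ to M-Z+ neither tool called a member in females (0.0593% of genes called by edgeR and 0.0671% by DESeq2) or in males (0.048% and 0.0727%). There, no member had an unadjusted p below 0.05 by either tool. Such a p was found for 6.64% of genes in females and 7.86% in males by edgeR (4.9% and 5.72% by DESeq2). In whole embryos, fewer cells that express a gene and less RNA of it per cell cannot be told apart.

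Kcnk9 was lower in most M-Z- embryos, by amounts that differed between embryos. In females it was 9.75 to 12.97 CPM (median 11.04) in the 6 M+Z+ embryos, 12.3, 14.3 and 14.3 CPM in M-Z+ embryos and 11.2, 3.996, 5.60 and 7.76 CPM in M-Z- embryos. Male embryos had 10.2, 12.2, 10.98 and 11.4 CPM in M+Z+, 12.03, 11.02 and 11.4 CPM in M-Z+ and 5.73, 1.04 and 8.71 CPM in M-Z- embryos. Female replicates 2, 3 and 4 and all 3 male M-Z- embryos were below every M+Z+ and M-Z+ embryo of their sex, and female replicate 1 was at the M+Z+ level. Male M-Z- replicate 2 stood apart with 17 Kcnk9 reads, where the other 6 M-Z- embryos had 76 to 229. Its Chrac1 (16.7 CPM), Ago2 (134), Slc45a4 (22.7) and Ptp4a3 (56.7) were also the lowest of the 23 embryos, and its Khdrbs3 (57.2) the highest. Its Peg13, its Trappc9 and the neighbouring genes Col22a1, Ptk2, Dennd3, Fam135b and Gpr20 lay within the range of the other embryos.

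The log2 fold change of Kcnk9 from M+Z+ to M-Z- by edgeR was -0.65 ± 0.19 in females, with an adjusted p of 0.107, and -1.10 ± 0.37 in males, with an adjusted p of 0.184, neither past the threshold. DESeq2 gave the same -0.65 in females with an adjusted p of 0.0276, a call, and -1.11 in males with an adjusted p of 0.257. In the edgeR fit of both sexes with sex as a covariate, Kcnk9 was called at -0.83 ± 0.20 (adjusted p = 0.0112) and was the only member called, where 2.18% of 16755 genes were called. That fit stayed past the threshold when each M-Z- embryo was left out in turn (log2 fold change -1.01 to -0.65, adjusted p = 0.00241 to 0.0299), with -0.65 (adjusted p = 0.00416) without male replicate 2. Against M-Z+ embryos the log2 fold change was -0.92 ± 0.22 in females and -1.11 ± 0.40 in males (adjusted p = 0.12 and 0.48). The fit of both sexes gave -0.99 ± 0.22 (adjusted p = 0.0215, a call, 0.561% of genes called). Between M-Z+ and M+Z+ embryos it was 0.27 ± 0.20 in females, 0.01 ± 0.35 in males and 0.16 ± 0.20 in both sexes (adjusted p = 0.784, 0.0776% of genes called).

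The larger fall of Kcnk9 in males was within the error. The log2 fold change in males minus that in females was -0.46 ± 0.42 (adjusted p = 0.864), and this interaction was called by edgeR for 0 of 17139 genes, with 1107 at an unadjusted p below 0.05. DESeq2 was not run for it. Without male replicate 2 the male log2 fold change was -0.63 (adjusted p = 0.137), close to that of the females.

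**Figure D4:**
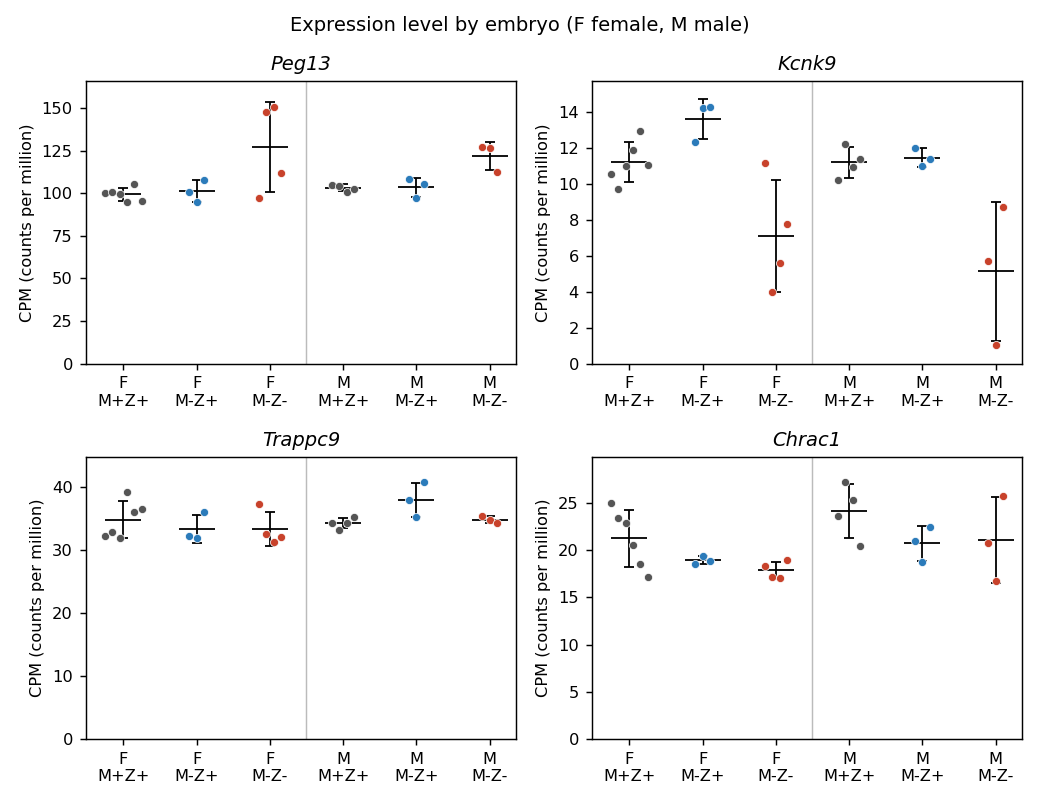
Level of the 4 members in CPM of total counts in each embryo by sex (F, M) and genotype, with dots for embryos and black marks for the mean ± SD. Peg13 is above the M+Z+ range in 6 of 7 M-Z- embryos, Kcnk9 is below it in 6 of 7, and the M-Z- and M+Z+ groups of Trappc9 and of Chrac1 overlap.

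Neurons express Kcnk9, so the summed CPM of 12 neuronal marker genes (Tubb3, Stmn2, Elavl3, Elavl4, Map2, Dcx, Snap25, Syt1, Nefl, Nefm, Gap43 and Rbfox3) is given beside it. The sum was 2305 to 2694 in female M+Z+ and 2085 to 2316 in female M-Z- embryos, and 2209 to 2436 in male M+Z+ and 2046 to 2289 in male M-Z- embryos. In females 7 of the 12 markers had an unadjusted p below 0.05 by each tool, and in males 0 did by edgeR and 1 by DESeq2, against the shares of all genes given above for that p (15.5% by edgeR in females, 17% in males). Neither tool called a marker, and their median log2 fold change by edgeR was -0.14 in females and -0.02 in males. By replicate number the sum was 2238, 2189, 2316 and 2085 in the female and 2168, 2289 and 2046 in the male M-Z- embryos. Whether the neurons that express Kcnk9 were fewer was not tested. Kcnk9 per 1000 CPM of neuronal markers was 4.19 to 5.11 in M+Z+ embryos of both sexes, and it was 5.01, 1.83, 2.42 and 3.72 in female and 2.64, 0.454 and 4.26 in male M-Z- embryos. On the log2 scale the mean difference over both sexes was -1.17 for Kcnk9 CPM (exact permutation p = 0.00068, 0.0122 after Benjamini-Hochberg over 18 such tests) and -1.04 relative to the neuronal sum (exact p = 0.00218, adjusted 0.0129). Within a sex, Kcnk9 CPM differed by -0.751 in females and -1.59 in males (adjusted 0.0571 in each). Relative to the neuronal sum it was -0.605 in females and -1.47 in males (adjusted 0.0686 and 0.0735). Between M-Z+ and M+Z+ embryos the differences went the other way, by 0.161 for Kcnk9 CPM (exact p = 0.0276, adjusted 0.0571) and 0.185 relative to the neuronal sum (exact p = 0.00272, adjusted 0.0129) over both sexes. The latter was 0.286 in females (exact p = 0.0119, adjusted 0.0357) and 0.0842 in males (exact p = 0.429, adjusted 0.454). These tests were chosen after the values were seen.

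Most Kcnk9 reads came from the maternal allele in all 3 genotypes. In female M+Z+ embryos there were 60 to 92 maternal and 0 to 3 paternal reads, and in male M+Z+ embryos 71, 46, 80 and 68 maternal against 0, 0, 1 and 0 paternal reads. In M-Z+ embryos the maternal reads were 91, 92 and 74 in females and 74, 63 and 64 in males, with 1, 2 and 3 and then 0, 0 and 0 paternal reads. In female M-Z- embryos there were 89, 24, 32 and 35 maternal and 2, 0, 1 and 0 paternal reads, and in male M-Z- embryos 32, 6 and 40 maternal and 1, 0 and 4 paternal reads. In the 3 M-Z- embryos without a paternal read, the 6 to 35 reads allow a paternal share of up to 8.57 to 50%. Among females the P-score averaged -0.484 ± 0.0152 in the 6 M+Z+ embryos, against -0.487 ± 0.0155 in the 4 M-Z- embryos (exact permutation p = 0.714). In males it was -0.497 ± 0.00617 (n = 4) in M+Z+ embryos, and the 2 M-Z- embryos with over 10 allele-assigned reads had -0.470 and -0.409, too few for the exact test. Summed over the males, 5 paternal and 78 maternal reads were found in M-Z-, 1 and 265 in M+Z+ and 0 and 201 in M-Z+ embryos, and 4 of the 5 came from replicate 3. The shift from M+Z+ to M-Z- by edgeR had an adjusted p of 1 in females and 0.221 in males (unadjusted p = 0.951 and 0.00714), and that from M-Z+ to M-Z- in males had an adjusted p of 0.115 (unadjusted p = 0.00284).

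The lower level of Kcnk9 was seen in its maternal reads, although no call was made on them. In reads per M allele-assigned reads they were 22.0 to 30.5 in female M+Z+ and 27.6, 8.28, 12.4 and 11.3 in female M-Z- embryos. In males they were 18.0, 17.0, 27.5 and 24.7 in M+Z+ and 13.01, 2.43 and 15.5 in M-Z- embryos. Their log2 fold change by edgeR was -0.77 ± 0.23 in females and -1.07 ± 0.35 in males (adjusted p = 0.206 and 0.14), where 0.479% of 7105 and 2.68% of 7082 genes were called. Paternal Kcnk9 reads averaged fewer than 5 per embryo and were not tested.

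Among the 7 M-Z- embryos, those with more maternal Peg13 had less Kcnk9. From the highest to the lowest P-score of Peg13 (0.445, 0.335, 0.218, 0.182, 0.128, 0.107 and 0.0329), Kcnk9 was 11.2, 8.71, 5.73, 7.76, 5.60, 3.996 and 1.04 CPM. The order was the same except for male replicate 1 and female replicate 4, which changed places, and within each sex it was the same throughout. Pearson's r was 0.936 (permutation p = 0.00198) and Spearman's rho was 0.964 (permutation p = 0.00278). Of the 10 relations to the Peg13 P-score that were computed, this one had adjusted values of 0.0109 for r and 0.0139 for rho. Without the 2 embryos farthest from the median P-score (female replicate 1 and male replicate 3) r was 0.864, and without male replicate 2 it was 0.928. The 4 females and 3 males are too few for a correlation within a sex. Relative to the neuronal markers r was 0.929 (permutation p = 0.00218), while the neuronal sum itself had an r of -0.372 (permutation p = 0.412), which was -0.655 without the 2 farthest embryos and -0.180 without male replicate 2. Of the 17139 genes tested, 21 others (0.123%) had an r with the Peg13 P-score at least as large in size, and the median size was 0.38. Both values of an embryo come from the same library.

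The level of Peg13 had a weaker relation to its own P-score in these embryos. Pearson's r was -0.749 (permutation p = 0.0538), Spearman's rho was -0.607 (permutation p = 0.167), and r was -0.289 without the same 2 embryos, so that it rested on them. Trappc9 CPM had an r of 0.615 (permutation p = 0.143) and -0.00401 without the 2 embryos, and Chrac1 CPM had an r of 0.539 (permutation p = 0.221) and 0.893 without them. Without male replicate 2 instead, r was -0.868 for Peg13, 0.863 for Trappc9 and 0.444 for Chrac1.

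**Figure D5:**
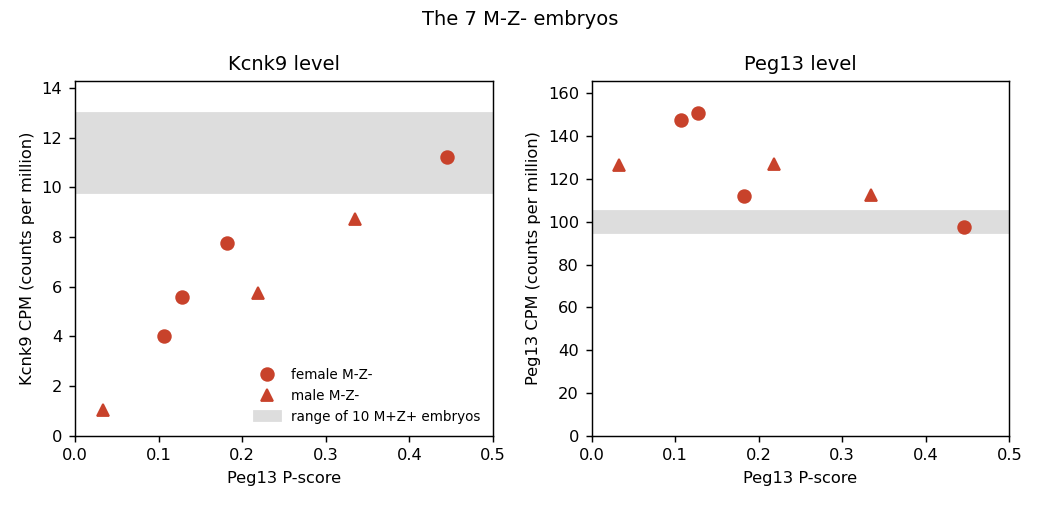
Peg13 P-score (no unit) against the level of Kcnk9 and of Peg13 in CPM in the 7 M-Z- embryos, with symbols by sex and grey bands for the range of the 10 M+Z+ embryos. Kcnk9 rises with the P-score (r = 0.936), and 6 of the 7 embryos are below the M+Z+ band.

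Trappc9 had no called difference between genotypes in level or alleles. In females its level was 31.9 to 39.2 CPM (median 34.4) in M+Z+, 32.1, 31.9 and 35.9 CPM in M-Z+ and 37.2, 32.5, 31.2 and 32.1 CPM in M-Z- embryos. Male embryos had 34.3, 33.2, 34.3 and 35.2 CPM in M+Z+, 37.8, 35.2 and 40.7 CPM in M-Z+ and 35.3, 34.8 and 34.2 CPM in M-Z- embryos. The M-Z- and M+Z+ groups overlapped in both sexes, and the male M-Z+ embryos were just above the male M+Z+ embryos (log2 fold change 0.13 ± 0.07, adjusted p = 0.666). The log2 fold change from M+Z+ to M-Z- was -0.07 ± 0.07 in females and 0.06 ± 0.07 in males (adjusted p = 0.698 in each). The mean P-score in the 10 M+Z+ embryos was 0.00731 ± 0.106, with 5 embryos above 0 and 5 below (exact sign-flip permutation p = 0.867). In M-Z- embryos it was -0.0288 ± 0.0849 (n = 4) in females and -0.0391 ± 0.0614 (n = 3) in males, and the difference over both sexes was -0.0414 (exact p = 0.445). The M-Z+ embryos averaged -0.0736 ± 0.0757 (n = 3) in females and -0.0977 ± 0.0437 (n = 3) in males, all 6 below 0, and differed from M+Z+ embryos by -0.0930 over both sexes (exact p = 0.0976, adjusted 0.583 over the 87 tests). With 36 to 78 allele-assigned reads per embryo, a small shift of Trappc9 was not detectable.

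Chrac1 had more paternal than maternal reads in M+Z+ embryos. Its P-score averaged 0.132 ± 0.109 over the 10 M+Z+ embryos, with 9 above 0 and 1 at 0 (exact sign-flip permutation p = 0.00391, adjusted 0.00725 over the 13 genes tested in this way). The spread was wide, from 0 (53 paternal and 53 maternal reads in male replicate 1) to 0.296 (39 and 10 reads in female replicate 2), on 33 to 106 reads per embryo. In M-Z- embryos it was 0.0963 ± 0.0470 (n = 4) in females and 0.0838 ± 0.173 (n = 3) in males, and the difference over both sexes was -0.0413 (exact p = 0.484). The M-Z+ embryos averaged 0.0306 ± 0.117 (n = 3) in females, with 1 embryo at -0.105, and 0.160 ± 0.0387 (n = 3) in males, and the difference from M+Z+ embryos was -0.103 in females (exact p = 0.226) and 0.0311 in males (exact p = 0.657). Chrac1 CPM in females was 17.1 to 24.9 (median 21.7) in M+Z+, 18.5, 19.3 and 18.9 in M-Z+ and 18.3, 17.1, 17.0 and 18.9 in M-Z- embryos. In males it was 23.6, 27.1, 25.3 and 20.4 in M+Z+, 20.9, 18.7 and 22.4 in M-Z+ and 20.7, 16.7 and 25.7 in M-Z- embryos, and the groups overlapped in both sexes. The log2 fold change from M+Z+ to M-Z- was -0.25 ± 0.10 in females and -0.16 ± 0.13 in males (adjusted p = 0.216 and 0.544), and the fit of both sexes gave -0.22 ± 0.08 (adjusted p = 0.0813). From M+Z+ to M-Z+ that fit gave -0.21 ± 0.08 (adjusted p = 0.269, unadjusted p = 0.0179).

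Per kb of exon, the levels of the members in female M+Z+ embryos were 24.9 ± 3.54 CPM for Chrac1, 21.0 ± 0.799 for Peg13, 4.88 ± 0.407 for Trappc9 and 1.45 ± 0.143 for Kcnk9 (SD, n = 6). In male M+Z+ embryos they were 28.3 ± 3.35, 21.9 ± 0.409, 4.80 ± 0.117 and 1.44 ± 0.109 CPM per kb in the same order (n = 4). In females the ranges of Chrac1 and Peg13 overlapped, and Trappc9 and Kcnk9 were separated from them and from each other. In males the range of Chrac1, 24.0 to 31.9 CPM per kb, was above that of Peg13, 21.4 to 22.3.

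Ago2, which encodes an Argonaute protein of RNA interference and is the next gene beyond Chrac1, had a small maternal excess on many more reads (832 to 1751 per embryo). Its P-score averaged -0.0805 ± 0.0132 in the 10 M+Z+ embryos, below 0 in all 10 (exact sign-flip permutation p = 0.00195, the smallest possible, adjusted 0.00423). Of the other neighbours tested in this way, Col22a1 (-0.0733), Ptp4a3 (-0.0242) and Slc45a4 (-0.0214) were also below 0 on average, in 9 of 10 embryos each (adjusted 0.0178, 0.0113 and 0.00952), while Ptk2 and Dennd3 averaged -0.00696 and -0.00134 (adjusted 0.632 and 0.953). In M-Z- embryos the P-score of Ago2 was -0.0903, -0.0449, -0.0432 and -0.0176 in females and -0.0485, -0.0204 and -0.0778 in males. It was thus nearer to equal alleles by 0.0324 on average over both sexes (exact permutation p = 0.00599, 0.13 after adjustment over the 87 tests), a shift that edgeR did not call (adjusted p = 0.817 in females and 0.609 in males). The embryos with the highest P-score of Peg13 had the lowest of Ago2 (r = -0.876, permutation p = 0.0131, adjusted 0.0437), but rho was -0.75 (permutation p = 0.0663) and r was -0.347 without female replicate 1 and male replicate 3, so that the relation rested on them. The level of Ago2 averaged 185 ± 10.1 CPM in female M+Z+ and 171 ± 14.9 CPM in female M-Z- embryos (log2 fold change -0.12, adjusted p = 0.47).

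Of the list of 10 neighbours on chromosome 15, 9 symbols were in the tables (the list held an old name of Ago2 as well) and all 9 were tested for their level. From M+Z+ to M-Z- neither edgeR nor DESeq2 called any, and 2 in females (Col22a1 and Ptp4a3) and 1 in males (Gpr20) had an unadjusted p below 0.05 by edgeR, where 15.5% and 17% of all genes did. DESeq2 gave as many at an unadjusted p below 0.05 in each sex. The edgeR log2 fold changes were -0.39 ± 0.13 for Col22a1 (adjusted p = 0.141) and -0.22 ± 0.10 for Ptp4a3 (adjusted p = 0.304) in females and 1.30 ± 0.36 for Gpr20 (adjusted p = 0.133) in males. The median log2 fold change of the 9 was -0.07 in females and -0.16 in males, where that of all tested genes was -0.0036 and 0.0017.

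The partners of the members were described in the same way, and their counts at an unadjusted p below 0.05 stand against the same shares of all genes (15.5% in females and 17% in males by edgeR). All 14 TRAPP complex genes, Trappc9 among them, were tested, and none was called by edgeR or DESeq2 from M+Z+ to M-Z- in either sex, with 1 in females (Trappc4) and 3 in males (Trappc3, Trappc6a and Trappc10) at an unadjusted p below 0.05 by edgeR and as many by DESeq2. Their median log2 fold change was -0.02 in females and -0.04 in males. Of 14 two-pore potassium channel genes 10 were tested by edgeR and 0 called, with 1 in females (Kcnk9) and 3 in males (Kcnk9, Kcnk10 and Kcnk16) at an unadjusted p below 0.05 and a median of -0.01 and -0.16. DESeq2 called Kcnk9 in females (0.875% of genes called) and Kcnk16, a channel known from the pancreas, in males (1.12% of genes called), where its log2 fold change by edgeR was -1.80 ± 0.43 (adjusted p = 0.0959). In the edgeR fit of both sexes 2 channel genes were called, Kcnk9 and Kcnk16, the latter at -1.09 ± 0.30 (adjusted p = 0.0225), where 2.18% of genes were called. All 6 genes of the CHRAC and ACF list were tested and 0 called by either tool, with 3 in females (Chrac1, Pole3 and Baz1a) and 1 in males (Pole3) at an unadjusted p below 0.05 by edgeR, as many by DESeq2, and a median of -0.12 in each sex. Pole3, the histone fold partner of Chrac1, had a log2 fold change of -0.24 ± 0.07 in females and -0.30 ± 0.09 in males (adjusted p = 0.125 and 0.154). The fit of both sexes gave -0.26 ± 0.06 (adjusted p = 0.00501), below the size that a call needed, and between M-Z+ and M+Z+ embryos it gave -0.23 ± 0.06 (adjusted p = 0.129).

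Plagl1, Snrpn and Impact are paternally expressed genes of other imprinted domains whose control region is also methylated on the maternal allele. Their mean P-scores in the 10 M+Z+ embryos were 0.491, 0.494 and 0.373, and in the 7 M-Z- embryos they were -0.0473 ± 0.0105, -0.0220 ± 0.0267 and 0.106 ± 0.0486. Within the same M-Z- embryos the P-score of Peg13 exceeded that of Plagl1 by 0.254 ± 0.143 and that of Snrpn by 0.229 ± 0.142, in 7 of 7 embryos each (exact sign-flip permutation p = 0.0156, the smallest possible, adjusted 0.0234 over 3 comparisons). It exceeded that of Impact by 0.101 ± 0.106, in 5 of 7 embryos (exact p = 0.0625). The SD of Peg13 among these embryos (0.142) was larger than that of each of the 3 genes. Its P-score had no detectable relation to that of Plagl1 (r = -0.0854, permutation p = 0.814) or Snrpn (r = 0.0858, permutation p = 0.85) over the 7 embryos. Without the same 2 embryos r was -0.659 for Plagl1 and 0.658 for Snrpn, and without male replicate 2 it was 0.00354 and -0.204. The r of 0.809 with Impact (permutation p = 0.0272, adjusted 0.068) was 0.0113 without the 2 embryos.

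As a description of likeness, log2(CPM + 1) was centred within each sex and correlated with that of 17138 other genes over the 23 embryos. The genes closest to Peg13 were Mest (r = 0.805), Ephb4 (0.804), Fmnl3 (0.797), Col26a1 (0.797) and Fgd1 (0.797), and Mest is an imprinted gene expressed from the paternal allele. The genes closest to Kcnk9 were Azi2 (r = 0.925), Ltv1 (0.906), Tlcd4 (0.902), Cpsf2 (0.901) and Klhdc10 (0.895). Kcnk9 and Peg13 had an r of -0.732. Without male M-Z- replicate 2 the r of Peg13 and Kcnk9 was -0.851, lower than that of Peg13 with any other gene but 1, and the genes closest to Kcnk9 became Klhdc10 (0.881), Klf14 (0.862), Ltv1 (0.833), Grin2b (0.825) and Nudt12 (0.823). The 23 embryos share their genotype groups, so these values follow any difference between the groups as well.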

How the data were processed

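Raw counts of reads for each gene in each embryo were deposited for each sex. To obtain them, the authors trimmed reads with Trim Galore, mapped them uniquely to mm9 with STAR 2.7.8a and counted them with featureCounts (Subread 2.0.1) on the UCSC mm9 annotation, set to be strand-specific and to count a read for every gene it overlapped. Whether the library kit kept the strand was not given in the sources used here. For the deposited counts by allele, the authors called strain variants with GATK, masked them in mm9 before a second STAR mapping, sorted reads by parent with SNPsplit and counted these with featureCounts. A further deposited column gave exon lengths in bases. Genotypes came from the labels, and columns headed WT were read as M+Z+. Of the 6 female M+Z+ embryos in the allelic table, 4 shared 2 headers and so carry no number, and their P-scores were not joined to the gene table by embryo.

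Counts were fitted with edgeR 4.0.16 (glmQLFit and glmQLFTest, TMM scaling, filterByExpr, limma 3.58.1, R 4.3.3) on the whole table, 3 genotypes of a sex in 1 fit, with Benjamini-Hochberg adjustment over all genes tested. Errors of log2 fold changes are standard errors. DESeq2 1.42.0 was an alternative. Allelic shifts were fitted on paternal and maternal counts with embryo effects, and the reads of each allele were also fitted alone, with all allele-assigned reads as library size and a mean of at least 5 reads of that allele. P-scores needed more than 10 allele-assigned reads and were compared by exact two-sided permutation tests (Python 3.11.15, numpy 2.4.6, scipy 1.17.1). Scripts were tested on simulated data. Gene coordinates came from the count tables, and sequences from a mm9 reference genome, with the stretch at the Kcnk9 start not reported here. In that genome 0 of 25895 genes of the tables ended past a chromosome end, and 99.8% of those matched by name overlapped its annotation. The genes named were the 4 members, Zfp57, 3 comparators, neighbours and called genes of the lists, and the 5 genes most like Peg13 and Kcnk9 in level. List genes named at an unadjusted p below 0.05, and Pole3, were chosen after their values were seen. The members and lists were chosen with earlier results of these data known.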

Additional observations from a re-analysis of the deposited data

Results flagged for a closer look

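Among 24 groups of 4 to 6 embryos in which the level and the P-score of the members were examined, 3 had an embryo set off from the others by a gap above the 95% critical value of Dixon's test, where chance gives about 1 in 20 for values that are free to vary. In the first 2 every other embryo lay at the bound of the P-score, so that any single read of the other allele would set an embryo off and that rate does not apply. Of the female M+Z+ embryos, 1 had a Peg13 P-score of 0.497 where the other 5 had 0.5, which is 1 maternal read among 342. Male M+Z+ replicate 3 had a Kcnk9 P-score of -0.488 where the other 3 had -0.5, which is 1 paternal read among 81. Female M-Z- replicate 4 had a Chrac1 P-score of 0.167, on 34 paternal and 17 maternal reads, where the other 3 had 0.0682 to 0.0758.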

How the results depend on the processing

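Among the 4 members, the level results that changed their side of the threshold were those of Kcnk9 in M-Z- embryos. Kcnk16 of the channel list changed its side too, by DESeq2 in males and in the fit of both sexes, as given above. Against M+Z+ embryos, in females the log2 fold change was -0.65 by DESeq2 (adjusted p = 0.0276) and -0.83 in the fit of both sexes (adjusted p = 0.0112), the value for males too, and each passed. Leaving out single embryos gave -0.95 to -0.45 in females and -1.69 to -0.63 in males, past the threshold only without female M-Z- replicate 1 (-0.95, adjusted p = 0.00602) and without male M-Z- replicate 3 (-1.69, adjusted p = 0.0146). Against M-Z+ embryos the values past the threshold were -0.92 by DESeq2 in females (adjusted p = 0.00912) and -0.99 in the fit of both sexes (adjusted p = 0.0215, for each sex). Leaving out single embryos gave -1.22 to -0.72 in females and -1.70 to -0.65 in males, past it only without female M-Z- replicate 1 (-1.22, adjusted p = 0.00263) and without male M-Z- replicate 3 (-1.70, adjusted p = 0.0299). The cause was not tested. The P-score difference of Peg13 between M-Z- and M-Z+ embryos was -0.282 in females and -0.292 in males, and the exact Kruskal-Wallis test, which covers the 3 genotypes, gave p = 0.00221 and 0.0314. Against M+Z+ embryos that difference in males was -0.373 to -0.222 with single embryos left out, and the exact p, 0.0667 to 0.1, could not be smaller with so few embryos. Under the replicate block (replicate numbers of the labels) the log2 fold change from M+Z+ to M-Z- was 0.33 and 0.27 for Peg13, -0.64 and -1.20 for Kcnk9, -0.04 and 0.07 for Trappc9 and -0.37 and -0.25 for Chrac1 in females and males, with no call changed. Same-numbered embryos had correlations of -0.249 to 0.215 in females and -0.157 to 0.419 in males, so the numbers were not taken to pair embryos. The block moved the genes called from 95 to 52, 10 to 4 and 33 to 23 in females and from 65 to 128, 8 to 41 and 25 to 22 in males (M-Z- against M+Z+, M-Z+ against M+Z+, M-Z- against M-Z+), the fit of both sexes called 365, 13 and 94, and DESeq2 called 143, 15 and 46 in females and 182, 13 and 57 in males. No result changed its direction past a threshold, and 219 values of the main comparisons and 423 others kept their side. Allelic results of Kcnk9 and Trappc9 are limited by at most 94 and 78 allele-assigned reads per embryo.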
